A study of Mus musculus with 16 samples.

Results

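Lung cells of mice that received 6-OHDA and seeded PDAC (pancreatic ductal adenocarcinoma) cells were compared with lung cells of mice that received 6-OHDA and no PDAC cells. The members are the cells whose treatment is given as 6OHDA in the deposited cell table, 19082 of the 80449 cells of the study. They come from 2 seeded samples (6-OHDA-PDAC 1 and 2, with 3955 and 3499 cells) and 3 unseeded samples (6-OHDA 1 to 3, with 3963, 4144 and 3521 cells). The study also holds vehicle and BIBO3304 samples with and without PDAC cells, 15 samples in all. The 2 vehicle-PDAC samples and the 3 vehicle samples are used here to ask whether seeding acted differently under 6-OHDA. Seeding is written as IV in the table and was read as PDAC cells present. Neither the labels nor the table give the strain, age, PDAC line, doses or times, or say whether a sample is 1 animal or a pool. The p-values below therefore measure how far these samples differ, which may be technical.

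6-OHDA (6-hydroxydopamine) is a neurotoxin that enters sympathetic nerve endings through the noradrenaline transporter, which Slc6a2 encodes, and destroys them. Sympathetic nerves follow the airways and vessels of the lung and release noradrenaline and neuropeptide Y, and BIBO3304 blocks the Y1 receptor of neuropeptide Y. The lung has macrophages of more than one kind. Alveolar macrophages live in the air spaces, and interstitial macrophages live in the tissue around vessels, airways and nerves, where they take up debris, present antigen and, in tumours, include cells recruited from blood monocytes.

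Whole lungs were dissociated, live single cells were sorted, and their RNA was counted per gene and cell. The seeded samples held 14746383 and 13694977 transcripts and the unseeded samples 12195761, 11020282 and 10003796. The median cell held 2559 and 2729 transcripts in the 6-OHDA-PDAC samples, against 2223, 2078 and 2123 in the 6-OHDA samples, so the seeded cells were read more deeply. Of the samples outside this comparison, vehicle-PDAC 2 is labelled seeded and has 0 cancer cells among its 9157 cells, while the 3 vehicle samples, labelled unseeded, hold 4 cells annotated as cancer cells (0.0132 to 0.025% of a sample). Values that rest on the vehicle groups were also computed without it. No cell barcode was shared between samples.

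Cells annotated as cancer cells made up 1.90% of 6-OHDA-PDAC 1 (75 cells, 95% Clopper-Pearson interval 1.49 to 2.37%) and 2.03% of 6-OHDA-PDAC 2 (71 cells, 1.59 to 2.55%). None were found in the 3 6-OHDA samples, where a count of 0 allows a share of up to 0.0757, 0.0724 and 0.0852%. Taken at its measured value, the lower seeded share is at least 22.3-fold higher than the highest of those limits, each set at 3 cells per sample, and intervals and limits cover counting error only. In an edgeR fit to cell numbers, adjusted by Benjamini-Hochberg over types, the adjusted p was 0.00352, and without 6-OHDA-PDAC 1 it was 0.0594. The exact two-sided permutation p was 0.1, the smallest that 2 samples against 3 allow. The annotated cancer cells were large, with medians of 24186 and 23038 transcripts, and gave 13.7 and 14.9% of all transcripts of their samples.

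Pancreatic ductal and epithelial genes marked these cells. The epithelial keratin Krt18 reached 332 and 410 CPM (counts per 1000000 counts) in the cancer cells of the 2 samples, against 16.3 and 5.83 CPM in all other cells of the same samples. Onecut2, a transcription factor of pancreas and liver, reached 81.5 and 133 CPM, against 0.393 and 0.6 CPM in the other cells. Krt8, the partner of Krt18, stood at 74.5 and 98.7 CPM, against 7.54 and 3.86 CPM. The gastric-type trefoil genes Tff1 and Tff2 were at 0 in the cancer cells. The macrophage mannose receptor Mrc1 stood at 261 and 346 CPM in the same annotated cells, and no doublet caller was run here.

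Interstitial macrophages took a larger share of the seeded lungs. They made up 13 and 9.75% of the 2 6-OHDA-PDAC samples (95% Clopper-Pearson intervals 12 to 14.1 and 8.78 to 10.8%), against 3.13, 4.73 and 2.22% of the 3 6-OHDA samples. Both seeded samples lay above all 3 unseeded ones, with a log2 fold change of 1.76 ± 0.381 (SE) and an adjusted p of 0.00352 in the edgeR fit, and an exact permutation p of 0.1. The call did not hold without 6-OHDA-PDAC 1, where the log2 fold change was 1.53 with an adjusted p of 0.0701. The vehicle-PDAC samples averaged 3.52 ± 0.482% (SD, n = 2) interstitial macrophages and the vehicle samples 2.46 ± 0.466% (SD, n = 3). The seeding effect under 6-OHDA exceeded that under vehicle by 1.24 ± 0.547 on the log2 scale, which did not pass (adjusted p = 0.782, and 0.74 without vehicle-PDAC 2).

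These 2 types, the cancer cells and the interstitial macrophages, were the only ones of 22 called for their share (9.09% of the types tested), and 3 types had an unadjusted p under 0.05. Alveolar macrophages made up 14.3 and 13.6% of the 6-OHDA-PDAC samples and 24.5, 21.8 and 20.7% of the 6-OHDA samples. Their groups did not overlap, but the log2 fold change of -0.68 ± 0.246 did not pass in edgeR (adjusted p = 0.107), while DESeq2 gave an adjusted p of 0.0414. Natural killer cells, at 2.86 and 3.12% against 1.89, 2.17 and 1.42%, also did not overlap and did not pass (adjusted p = 0.439). Lymphatic endothelial cells, at 0.632 and 0.486% against 0.807, 0.869 and 0.824%, did not overlap or pass either (adjusted p = 0.452). All other types overlapped, apart from the 2 called. In each type without overlap the exact permutation p was 0.1, which 2 samples against 3 cannot go under. Monocytes, which supply lung macrophages from the blood, stood at 7.05 and 6.97% in the seeded samples and 6.46, 8.78 and 9.94% in the unseeded ones (adjusted p = 0.981). Alveolar fibroblasts, general capillary endothelial cells and alveolar type 2 cells overlapped between the groups, with log2 fold changes of 0.01, 0.01 and -0.22. For the difference in seeding effects between 6-OHDA and vehicle, 0 of 22 shares passed in edgeR (0%) and 1 had an unadjusted p under 0.05.

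**Figure D1:**
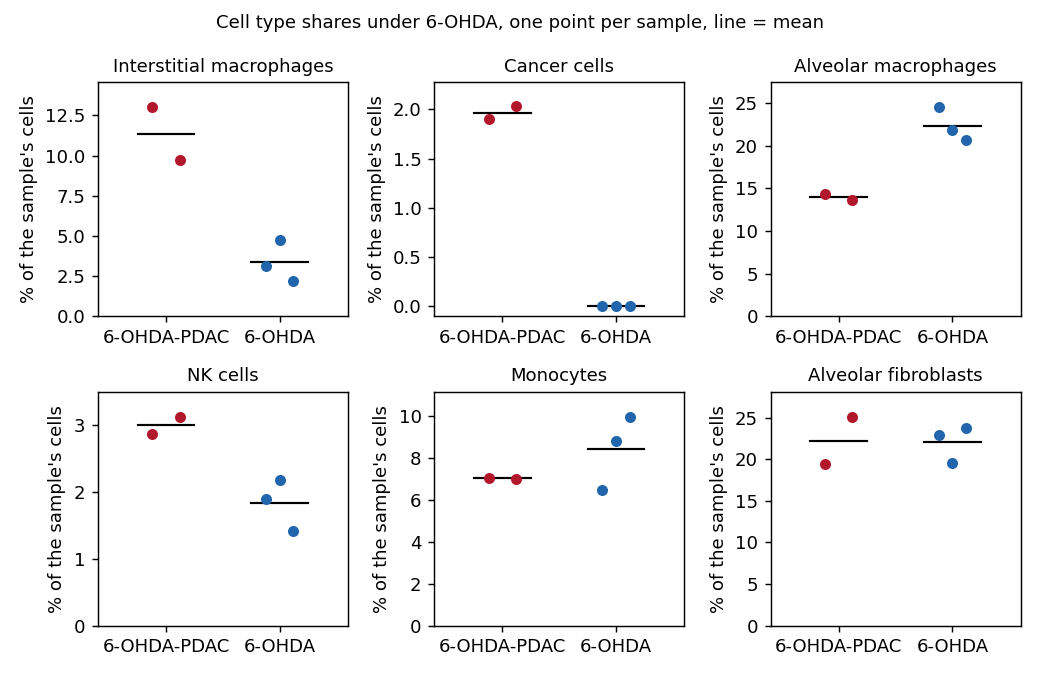
Share of each cell type in percent of the sample's cells (vertical axis) for the 6-OHDA-PDAC and 6-OHDA samples, with a point per sample and a line at the group mean. Interstitial macrophages and cancer cells passed the test. Alveolar macrophages and NK cells did not overlap between the groups and did not pass, and monocytes and alveolar fibroblasts overlapped. Lymphatic endothelial cells, not drawn, also did not overlap and did not pass.

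Gene by gene, transcripts were summed per sample and cell type, so that samples and not cells were the replicates, and 17 of the 22 types had enough cells. Over these types 784 of 107528 tests passed an adjusted p of 0.05 (0.729%), 264 higher and 520 lower in the seeded samples. Interstitial macrophages gave 594 of these calls, alveolar fibroblasts 146, general capillary endothelial cells 22, dendritic cells 10, monocytes 9, large vessel endothelial cells 2 and ciliated cells 1. The other 10 types, among them alveolar macrophages, alveolar type 2 cells, T cells, B cells, NK cells and neutrophils, had 0 calls in edgeR. In these types 3018 of 58573 tests had an unadjusted p under 0.05. That is near the share that a threshold of 0.05 passes where nothing differs. DESeq2 gave 9 calls among 55785 tests there. The total was 220 without 6-OHDA-PDAC 1, 133 without 6-OHDA-PDAC 2, 464 without 6-OHDA 1, 591 without 6-OHDA 2 and 436 without 6-OHDA 3.

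**Figure D2:**
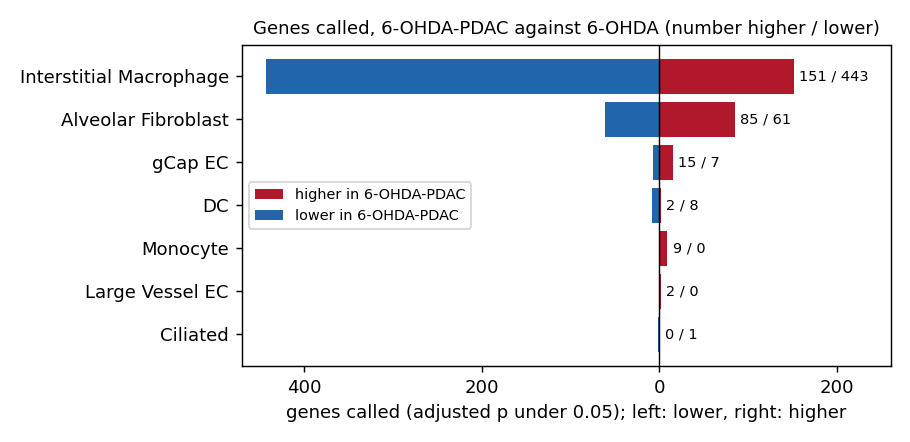
Number of genes past an adjusted p of 0.05 per cell type (horizontal axis), drawn to the right for genes higher and to the left for genes lower in 6-OHDA-PDAC samples than in 6-OHDA samples. The pair of numbers beside each bar gives higher and lower counts, and interstitial macrophages hold 151 higher and 443 lower of the 784.

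In interstitial macrophages of seeded lungs, the protease genes Mmp14 and Ece1 and some genes of the interferon-gamma response and of immune checkpoints rose. Some genes of alternatively activated macrophages (6 of 16 tested), complement (5 of 10), NF-kB cytokines and feedback (10 of 22) and immediate early factors (6 of 20) fell. Of 6443 genes tested, 151 rose (2.34%) and 443 fell (6.88%). Of the 594 calls, 96 also passed in each of the 5 fits that left out a single sample, 21 of them higher and 75 lower. The count was 194 without 6-OHDA-PDAC 1, 115 without 6-OHDA-PDAC 2 and 374 without 6-OHDA 3.

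The largest rises by the naming rule were Mmp14, Marchf3, Rrp1b and Ece1, and all of these passed in each leave-one-out fit. Mmp14, a membrane-anchored metalloproteinase that cleaves collagen, had 106 and 121 CPM in the 6-OHDA-PDAC samples, against 8.53, 5.12 and 13.6 CPM in the 6-OHDA samples. Its log2 fold change was 3.81 ± 0.445 (adjusted p = 5.78e-05), with no overlap between the groups. Ece1, the protease that makes active endothelin, had 516 and 462 CPM in seeded samples and 128, 44.4 and 67.8 CPM in unseeded ones (log2 fold change 2.64 ± 0.494, adjusted p = 0.00188). The ubiquitin ligase gene Marchf3 had 744 and 891 CPM, against 168, 81.9 and 31.6 CPM (3.07 ± 0.478, adjusted p = 0.000388). Rrp1b, a nucleolar protein gene, had 78.6 and 72.9 CPM, against 11.4, 10.2 and 13.6 CPM (2.73 ± 0.439, adjusted p = 0.00047). Every seeded value of these genes lay above every unseeded one. The groups did not overlap, in either direction, in 2700 of all 6443 genes tested in this type (41.9%).

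Spp1 encodes the secreted protein osteopontin and marks a tumour-associated macrophage state. It had 18.1 and 32.7 CPM in seeded interstitial macrophages, against 0, 3.41 and 0 CPM in unseeded ones. Spp1 stood at 21.1, 15.1 and 7.98 CPM in vehicle macrophages, above each unseeded 6-OHDA value. It passed in all 5 leave-one-out fits (log2 fold change 3.74 ± 0.722, adjusted p = 0.00227). The cancer cells of the same samples held 322 and 430 CPM of Spp1 in the cells that gave 13.7 and 14.9% of the samples' transcripts. The 14 markers of seeded pancreatic cancer include Spp1 itself. Their sum was 44.3 and 43.6 CPM in seeded interstitial macrophages, against 14.2, 18.8 and 4.52 CPM in unseeded ones. Spp1 alone gave 18.1 and 32.7 CPM of the seeded sums, so these are not separate from its rise. Of the defining cancer genes, Pdx1 was at 0 in all 5 samples and Onecut2 had 0 and 0.797 CPM in the seeded macrophages, while Krt18 had 4.31 and 1.59 CPM in seeded and 0, 0 and 4.84 CPM in unseeded macrophages. Mmp14 was at 85.4 and 89.8 CPM and Ece1 at 84.4 and 71.2 CPM in the cancer cells, below their levels in the seeded macrophages. Rrp1b was near its macrophage level in the cancer cells, at 63.1 and 76.1 CPM. Atp5b and Morrbid, which are described below, were above it, at 280 and 383 CPM and at 241 and 384 CPM. The part of cancer cell RNA in these rises was not tested.

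Interferon-gamma makes macrophages present antigen and secrete T cell attracting chemokines. Of 12 genes of its response tested, 4 rose (Cxcl9, Cd274, Ciita and Gbp8) and 0 fell, while 2.34% of all genes of the type rose. The median log2 fold change was 0.84 against 0.01 over all genes of the type. Cxcl9, a chemokine that draws T cells, had 41.3 and 93.3 CPM in the seeded samples, against 22.7, 5.12 and 9.04 CPM in the unseeded ones (log2 fold change 2.52 ± 0.698, adjusted p = 0.0259). Ciita, the master activator of MHC class II genes, had 367 and 357 CPM, against 208, 90.5 and 104 CPM (1.44 ± 0.335, adjusted p = 0.00879). Of 10 genes of the MHC class II pathway, Ciita and the lysosomal reductase gene Ifi30 rose and 0 fell, and the list's summed level overlapped between the groups. The type I interferon list, with 13 genes tested, had 0 calls in edgeR and a median of -0.06.

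Checkpoint genes were among the rises. Of 9 checkpoint genes tested, 3 rose and 0 fell, while 2.34% of all genes of the type rose. Cd274, which encodes PD-L1, had 110 and 151 CPM in seeded interstitial macrophages and 62.5, 59.8 and 72.3 CPM in unseeded ones (log2 fold change 1.02 ± 0.282, adjusted p = 0.0251). Pdcd1lg2, which encodes PD-L2, had 26.7 and 27.2 CPM, against 2.84, 5.12 and 4.52 CPM (2.60 ± 0.705, adjusted p = 0.0225). Havcr2, which encodes TIM-3, had 242 and 242 CPM, against 148, 52.9 and 94.9 CPM. Ciita passed in 3 of the 5 leave-one-out fits, Cxcl9 in 2, Cd274 and Havcr2 in 1 each, and Pdcd1lg2 and Gbp8 in 0. The highest adjusted p came without 6-OHDA-PDAC 2 for each of them, at 0.0712 for Ciita, 0.300 for Cxcl9, 0.294 for Cd274, 0.143 for Havcr2, 0.159 for Pdcd1lg2 and 0.311 for Gbp8. Cxcl9, Pdcd1lg2, Gbp8 and Ifi30 were also not called in DESeq2.

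**Figure D3:**
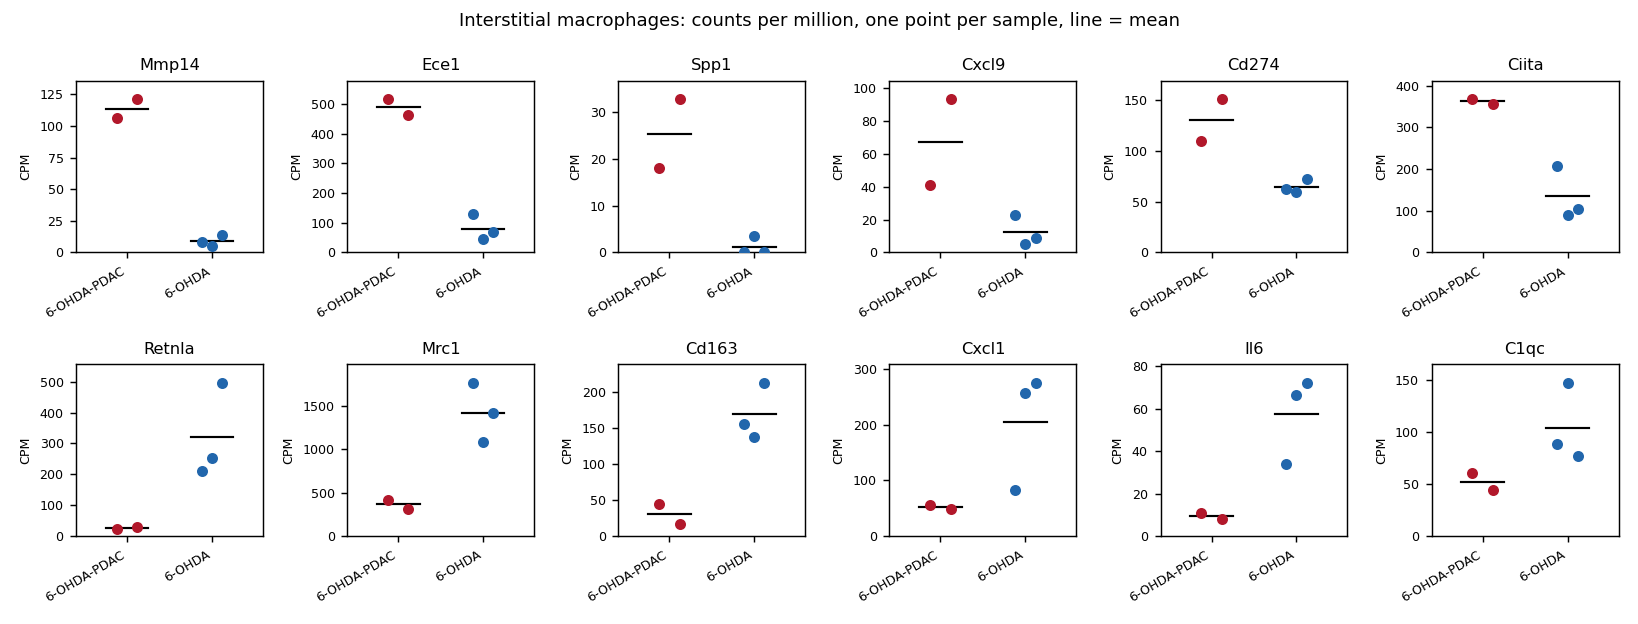
Levels of 12 genes in interstitial macrophages, in CPM (vertical axis, from 0), for the 6-OHDA-PDAC samples and the 6-OHDA samples, with a point per sample and a line at the mean. Mmp14, Ece1, Spp1, Cxcl9, Cd274 and Ciita are higher in seeded samples, each with no overlap. Retnla, Mrc1, Cd163, Cxcl1, Il6 and C1qc are lower, each with no overlap. Of all genes tested in this type, 41.9% do not overlap.

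Genes of the alternatively activated, tissue-resident state were among the falls. Of 16 such genes tested, 6 fell (Retnla, Mrc1, Cd163, Mgl2, Cbr2 and Il10) and 1, Pdcd1lg2, rose, with a median log2 fold change of -1. Among all genes of the type, 6.88% fell. Retnla, a secreted product of macrophages exposed to interleukin-4, had 21.2 and 27.2 CPM in the seeded samples, against 210, 254 and 497 CPM in the unseeded ones (log2 fold change -3.69 ± 0.538, adjusted p = 0.000213). The scavenger receptor gene Cd163 had 44.3 and 17.0 CPM, against 156, 138 and 213 CPM (-2.40 ± 0.488, adjusted p = 0.00344), and it did not pass without 6-OHDA-PDAC 2 (adjusted p = 0.0957). Mrc1, the mannose receptor, had 419 and 313 CPM, against 1770, 1080 and 1420 CPM (-1.96 ± 0.315, adjusted p = 0.00047). The seeded values of all of these lay below the unseeded ones, and 41.9% of all genes of the type did not overlap. Retnla and Mrc1 passed in each leave-one-out fit, as did Apoe, the lipid carrier, with 194 and 223 CPM in seeded and 586, 753 and 823 CPM in unseeded samples.

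The population behind this label was larger and read more deeply in the seeded lungs. It held 514 and 341 cells with 4070 and 3680 transcripts per cell in the 6-OHDA-PDAC samples, against 124, 196 and 78 cells with 2720, 2840 and 2650 transcripts per cell in the 6-OHDA samples. Set against all transcripts of the sample instead of those of the type, the interstitial macrophages gave 56.4 and 33.6 CPM of Mrc1 in the seeded samples and 51.1, 57.3 and 31.5 in the unseeded ones, which overlap. Retnla stood at 2.85 and 2.92 CPM of the sample in seeded lungs, against 6.07, 13.5 and 11 in unseeded ones, with no overlap. Ece1 stood at 69.5 and 49.5 CPM of the sample, against 3.69, 2.36 and 1.5. A changed level per cell and a changed mix of cells under the label cannot be told apart in these sums.

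Summed levels of some marker lists of the cell types that a macrophage label can hold differed between the groups, and others overlapped. The 12 interstitial macrophage markers summed to 2499 and 2683 CPM in seeded and 4085, 3083 and 3522 CPM in unseeded samples, with 4 lower (C1qb, C1qc, Cd163 and Mrc1). The 10 markers of conventional dendritic cells summed to 79.6 and 77.0 CPM, against 262, 190 and 213 CPM, with Cd209a, Clec10a, Flt3 and Zbtb46 lower. The 8 B cell markers, of which 2 were tested, summed to 56.4 and 40.2 CPM, against 210, 277 and 163 CPM, with Bank1 lower. Bank1 alone gave most of each sum, with 39.8 and 31.3 CPM against 173, 207 and 149 CPM. The 10 monocyte markers overlapped in sum, at 2057 and 2124 CPM against 1325, 4075 and 3364 CPM, with Plac8 and Itgal higher and Nr4a1 lower. The 12 alveolar macrophage markers overlapped in sum, at 221 and 172 CPM against 168, 249 and 271 CPM, with Plet1 higher. The part of such admixed cells in the gene calls was not tested.

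Complement genes were also among the falls. Of 10 complement genes tested, 5 fell and 0 rose, with a median log2 fold change of -1.05. Among all genes of the type, 6.88% fell. C1qb and C1qc, subunits of the protein that starts the classical pathway, had 84.6 and 105 CPM and 59.9 and 43.6 CPM in the seeded samples. In the unseeded samples C1qb had 176, 142 and 235 CPM and C1qc had 88.1, 147 and 76.9 CPM. The anaphylatoxin receptors C3ar1 and C5ar1 fell as well, with log2 fold changes of -1.51 ± 0.375 and -1.28 ± 0.361 (adjusted p = 0.0134 and 0.0295). These 4 genes each passed in 2 of the 5 leave-one-out fits. The adjusted p reached 0.262 for C1qb without 6-OHDA-PDAC 1 and 0.36 for C1qc without 6-OHDA-PDAC 2.

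NF-kB is the transcription factor family that switches on cytokines, chemokines and its own inhibitors in activated macrophages. Of 22 of its target genes tested, 10 fell and 0 rose in the seeded samples, with a median log2 fold change of -0.76. Among all genes of the type, 6.88% fell. The list summed to 4083 and 3949 CPM in the 6-OHDA-PDAC samples, against 5910, 5596 and 6642 CPM in the 6-OHDA samples. The cytokine gene Il6 had 10.6 and 8.17 CPM, against 34.1, 66.6 and 72.3 CPM (-2.57 ± 0.426, adjusted p = 0.000631). Cxcl1, which draws neutrophils, had 55.9 and 47.7 CPM, against 82.4, 258 and 276 CPM (-1.97 ± 0.439, adjusted p = 0.00665). Cxcl2, a chemokine with the same receptor, had 507 and 492 CPM, against 702, 913 and 931 CPM (-0.76 ± 0.226, adjusted p = 0.0372). Birc3 and Tnfaip3, feedback regulators of the pathway, fell with log2 fold changes of -1.36 ± 0.239 and -1.08 ± 0.237. In all of these genes the seeded values lay below every unseeded one, and 41.9% of all genes of the type did not overlap. Il6 and Birc3 passed in all 5 leave-one-out fits, Tnfaip3 in 4, Cxcl1 in 3 and Cxcl2 in 1. Without 6-OHDA-PDAC 2 the adjusted p was 0.107 for Cxcl1 and 0.275 for Cxcl2, and without 6-OHDA-PDAC 1 it was 0.164 for Tnfaip3.

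The promoters of Cxcl1 and Cxcl2 are shown because these genes fell together and share the kappaB-type motif. RefSeq promoters of the GRCm38.p6 build (250 bases before to 50 after each start) were searched on both strands for GGG, any 3 bases and TTCC (GGAA, any 3 bases and CCC on the other strand), and overlapping matches were each counted. The Cxcl1 promoter is at chr5:90890995-90891294 and that of Cxcl2 at chr5:90903649-90903948, both on the plus strand. Capitals mark the matches, 3 in each promoter, of which 2 overlap.
Cxcl1: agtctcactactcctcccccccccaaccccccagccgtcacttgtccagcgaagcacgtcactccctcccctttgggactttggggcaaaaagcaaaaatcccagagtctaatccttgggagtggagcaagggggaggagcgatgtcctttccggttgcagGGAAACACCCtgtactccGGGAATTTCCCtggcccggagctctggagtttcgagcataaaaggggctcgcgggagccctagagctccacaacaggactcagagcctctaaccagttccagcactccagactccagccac
Cxcl2: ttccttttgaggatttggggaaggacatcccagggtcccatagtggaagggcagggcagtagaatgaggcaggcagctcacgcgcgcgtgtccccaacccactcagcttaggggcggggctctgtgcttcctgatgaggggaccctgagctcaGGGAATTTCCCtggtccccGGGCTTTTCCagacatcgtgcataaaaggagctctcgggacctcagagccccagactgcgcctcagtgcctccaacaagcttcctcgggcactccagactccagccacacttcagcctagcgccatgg
Of the 10 list members that fell, 7 matched a RefSeq promoter by symbol and 5 of these hold the motif (Cxcl1, Cxcl2, Il6, Nfkbia and Tnfaip3, but not Birc3 or Icam1). Of all 27025 promoters of 300 bases, 1493 hold it (5.52%). A match describes the letters only. The list was drawn up as NF-kB targets, and its members that did not fall were not counted apart. These counts therefore do not bear on the fall.

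Immediate early genes and stress genes that tissue dissociation induces were also among the falls. Of 20 AP-1 and immediate early genes tested, 6 fell and 0 rose, with a median log2 fold change of -0.80. Among all genes of the type, 6.88% fell. Klf6 had 225 and 245 CPM in seeded interstitial macrophages, against 443, 662 and 543 CPM in unseeded ones (log2 fold change -1.23 ± 0.225, adjusted p = 0.00156), and passed in all 5 leave-one-out fits. The stress factor gene Atf3 had 191 and 180 CPM, against 563, 483 and 307 CPM (-1.29 ± 0.236, adjusted p = 0.00153), and did not pass without 6-OHDA-PDAC 2 (adjusted p = 0.0576). The 14 dissociation stress genes, 4 of them lower and 0 higher, summed to 2338 and 2461 CPM in seeded samples, against 3846, 4529 and 3952 CPM in unseeded ones. They share Atf3, Egr1 and Jun with the AP-1 list. Handling stress and a state in the living lung cannot be told apart for these genes. The metal-binding proteins Mt1 and Mt2 fell as well, with log2 fold changes of -1.79 ± 0.341 and -2.23 ± 0.351, and passed in all 5 leave-one-out fits.

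Further falls named by size were Bmp2, Samd4 and Erc2. Bmp2, a growth factor that macrophages of the gut wall pass to neurons, had 5.04 and 2.04 CPM in seeded interstitial macrophages and 56.9, 46.1 and 72.3 CPM in unseeded ones (log2 fold change -3.86 ± 0.462, adjusted p = 5.78e-05). Samd4, an RNA-binding repressor, had 6.04 and 0.681 CPM, against 37.0, 47.8 and 63.3 CPM. Erc2, a scaffold gene of presynaptic endings, had 3.02 and 2.04 CPM, against 19.9, 32.4 and 54.3 CPM and did not pass without 6-OHDA-PDAC 2 (adjusted p = 0.203). Nr3c2, the mineralocorticoid receptor, had 4.53 and 1.36 CPM, against 25.6, 41.0 and 54.3 CPM (-3.57 ± 0.553, adjusted p = 0.00038). Bmp2, Samd4 and Nr3c2 passed in all 5 leave-one-out fits. Of the interleukin-1 receptor family, Il1r1, Il1rap and Il1rl1 fell and the decoy receptor Il1r2 rose, with log2 fold changes of -2.12, -1.33, -2.25 and 1.18.

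Secretory and metabolic lists had few calls. Of 12 genes of the unfolded protein response, Pdia4 rose, with 78.6 and 96.7 CPM in the seeded samples and 45.5, 39.3 and 22.6 CPM in the unseeded ones. Of 27 genes of oxidative phosphorylation 1 rose, Atp5b, and the median log2 fold change of the list was 0.59. The hypoxia and glycolysis list had Vegfa and Ndrg1 higher and Hk1 lower among 13 genes. Vegfa, the main vessel growth factor, had 174 and 166 CPM, against 62.5, 39.3 and 94.9 CPM (log2 fold change 1.48 ± 0.361, adjusted p = 0.0121). It passed in 2 of the 5 leave-one-out fits, with an adjusted p of up to 0.0806 (without 6-OHDA 2). Slc7a11, the cystine importer, had 401 and 428 CPM, against 168, 97.3 and 190 CPM (1.49 ± 0.357, adjusted p = 0.0104), and passed in 2 leave-one-out fits, with an adjusted p of up to 0.09 (without 6-OHDA-PDAC 2).

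Alveolar fibroblasts, the lipid-rich stromal cells that support alveolar type 2 cells, had higher levels of the matrix genes Adam12 and Timp1 and of the acute phase gene Saa3 in the seeded lungs. Of 12626 genes tested, 85 rose (0.673%) and 61 fell (0.483%). Only 6 of the 146 calls, 5 higher and 1 lower, passed in all 5 leave-one-out fits. The count was 10 without 6-OHDA-PDAC 1, 7 without 6-OHDA-PDAC 2, and 12, 53 and 35 without 6-OHDA 1, 2 and 3. The 5 rises are Adam12, Timp1, Igfbp4, Ltbp2 and Cfb.

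Adam12, a metalloproteinase of activated mesenchymal cells, had 54.9 and 60.7 CPM in the 6-OHDA-PDAC samples, against 3.55, 3.60 and 2.34 CPM in the 6-OHDA samples (log2 fold change 4.17 ± 0.367, adjusted p = 1.11e-05). Timp1, an inhibitor of matrix metalloproteinases, had 43.5 and 49.6 CPM, against 2.13, 7.19 and 7.03 CPM (3.11 ± 0.383, adjusted p = 0.000414). Igfbp4, which binds insulin-like growth factors, had 194 and 204 CPM, against 33.4, 33.6 and 37.1 CPM (2.52 ± 0.285, adjusted p = 0.000256). Seeded and unseeded samples were far apart in all of these. Ltbp2, a protein of elastic microfibrils, had 11 and 14.9 CPM in seeded fibroblasts and 1.42, 1.2 and 1.17 CPM in unseeded ones. Cfb, the protease of the alternative complement pathway, had 80.2 and 70.9 CPM, against 13.8, 18.4 and 20.7 CPM. In the cancer cells Adam12 stood at 11.4 and 12.8 CPM and Timp1 at 8.44 and 14.2 CPM, below the seeded fibroblasts.

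Saa3, an acute phase protein gene, had 112 and 158 CPM in seeded fibroblasts, against 6.39, 9.59 and 8.60 CPM in unseeded ones (log2 fold change 4.05 ± 0.749, adjusted p = 0.0161). It passed in 0 of the 5 leave-one-out fits, with an adjusted p of up to 0.155 (without 6-OHDA-PDAC 2). Of 13 complement genes tested in these cells, Cfb and C3 rose and 0 fell, while in interstitial macrophages 5 of 10 complement genes fell. C3, the central complement protein, had 614 and 819 CPM, against 335, 429 and 378 CPM (0.91 ± 0.177, adjusted p = 0.019). Cxcl12, a chemokine that retains white cells and tumour cells, had 45.3 and 42.8 CPM, against 13.8, 17.2 and 10.9 CPM. Without 6-OHDA-PDAC 2 the adjusted p was 0.344 for C3 and 0.145 for Cxcl12. Cxcl1 and Il17ra rose in these cells, with log2 fold changes of 0.83 ± 0.179 and 0.72 ± 0.167, and fell in interstitial macrophages, with -1.97 ± 0.439 and -0.87 ± 0.234.

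The collagen and matrix list had 1 gene called of 22, Timp1, with a median log2 fold change of 0.36 against 0.00 over all genes of the type. Its summed level was 12530 and 12550 CPM in seeded fibroblasts, against 7977, 9042 and 9961 CPM in unseeded ones. The MHC class II list had 0 calls of 10 genes in edgeR and a median of 0.88. Among the falls, Npnt, a matrix ligand of integrin alpha-8 beta-1 and a marker of these cells, had 751 and 702 CPM, against 1170, 1320 and 1340 CPM (-0.81 ± 0.18, adjusted p = 0.0341). Its adjusted p was 0.352 without 6-OHDA-PDAC 2. The sulfotransferase gene Chst8 (log2 fold change -1.68 ± 0.283), the growth factor gene Bmp8a (-1.60 ± 0.312) and the receptor subunit gene Gsg1l (-1.32 ± 0.245) were among the largest falls by the naming rule. Chst8 had 154, 99.5 and 135 CPM in 6-OHDA, 44.2 and 36.8 CPM in 6-OHDA-PDAC and 45.6, 27.2 and 60.8 CPM in vehicle samples. Gsg1l had 48.6, 39.6 and 51.2 CPM, 22.4 and 15.2 CPM, and 18.1, 10.3 and 12.5 CPM in the same order. The 6-OHDA samples of both thus also lay above the vehicle ones. Bmp8a had 122, 81.9 and 145 CPM in 6-OHDA samples, likewise above the vehicle samples, at 70.9, 55.2 and 69.9 CPM. At 34.6 and 42 CPM, the 6-OHDA-PDAC samples lay below the vehicle samples for this gene. Nr3c2 fell in fibroblasts too, with 63.4 and 68.8 CPM against 132, 121 and 106 CPM. The 8 alveolar fibroblast markers summed to 4885 and 5172 CPM in seeded samples, against 6884, 7251 and 6178 CPM, and the cells held 3810 and 3890 transcripts each, against 2960, 2890 and 2890. The 14 cancer markers summed to 21.7 and 23 CPM in seeded fibroblasts and 14.6, 27.6 and 25 CPM in unseeded ones, which overlap.

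**Figure D4:**
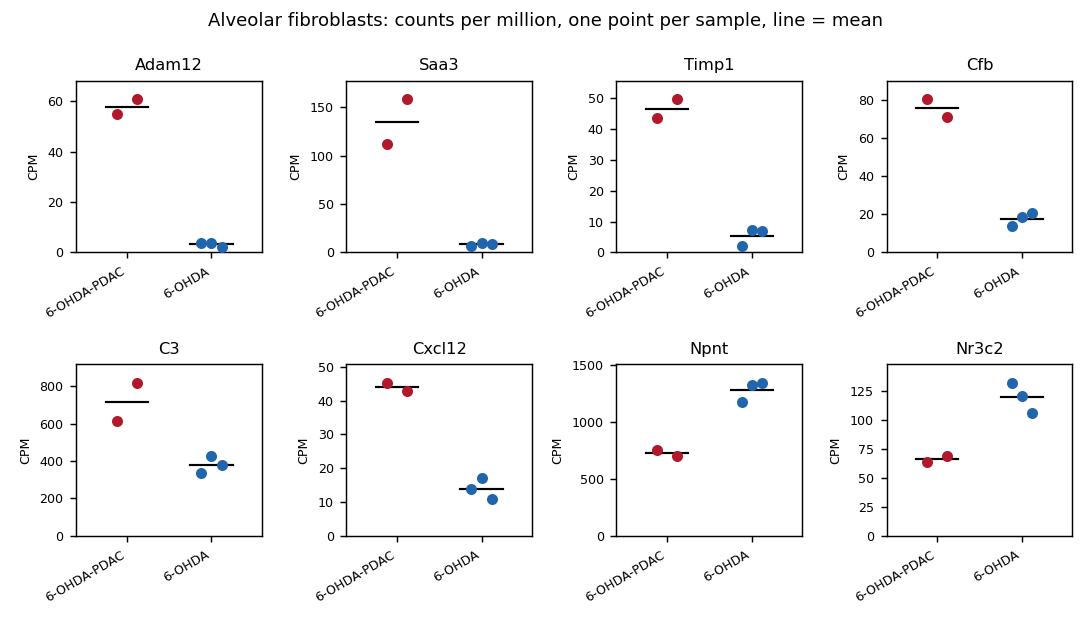
Levels of 8 genes in alveolar fibroblasts, in CPM (vertical axis, from 0), for the 6-OHDA-PDAC samples and the 6-OHDA samples, with a point per sample and a line at the mean. Adam12, Saa3, Timp1, Cfb, C3 and Cxcl12 are higher and Npnt and Nr3c2 lower in the seeded samples, each with no overlap. Of all genes tested in this type, 32.1% do not overlap.

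General capillary endothelial cells, the progenitor-like cells of the lung capillary bed, had 15 genes higher (0.184% of 8148) and 7 lower (0.0859%). Of these 22 calls 4 passed in all 5 leave-one-out fits, and the count was 7 without 6-OHDA-PDAC 1, 6-OHDA-PDAC 2 or 6-OHDA 1 and 12 without 6-OHDA 2 or 6-OHDA 3. Col15a1, a basement membrane collagen gene, had 120 and 55.0 CPM in the seeded samples, against 4.22, 8.93 and 1.66 CPM in the unseeded ones (log2 fold change 4.15 ± 0.557, adjusted p = 0.000489). Morrbid, a long noncoding RNA gene that controls the survival of myeloid cells, had 147 and 129 CPM, against 23.9, 21.4 and 35.0 CPM (2.36 ± 0.286, adjusted p = 0.000264). Both passed in each leave-one-out fit. Morrbid stood at 241 and 384 CPM in the cancer cells, above its level in the capillary cells, and the part of cancer cell RNA in its rise was not tested. The matrix protein gene Sparc, with 434 and 442 CPM in seeded and 217, 220 and 241 CPM in unseeded samples, rose but did not pass without 6-OHDA-PDAC 2 (adjusted p = 0.377). Of the falls, the protocadherin gene Pcdh7 had 79.7 and 68.5 CPM, against 270, 227 and 281 CPM, and the nuclear receptor gene Rora 207 and 268 CPM, against 604, 434 and 418 CPM.

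Monocytes had 9 genes higher (0.13% of 6924) and 0 lower (0%) in edgeR. DESeq2 gave 7 calls in all, and edgeR with the sample number as a replicate block gave 0. None of the 9 passed in every leave-one-out fit. The count was 0 without 6-OHDA-PDAC 1, 6-OHDA 2 or 6-OHDA 3 and 1 without 6-OHDA-PDAC 2 or 6-OHDA 1. Mmp14 had 61.0 and 28.1 CPM in seeded monocytes, against 1.53, 2.39 and 5.12 CPM in unseeded ones (log2 fold change 3.72 ± 0.604, adjusted p = 0.00987). The inhibitory antibody receptor gene Fcgr2b had 139 and 154 CPM, against 48.8, 29.9 and 36.8 CPM (1.94 ± 0.316, adjusted p = 0.00987). Cxcl9 had 20.8 and 23 CPM, against 0, 0 and 1.02 CPM, and Arg1, the arginase of suppressive myeloid cells, 22.1 and 16.6 CPM, against 1.53, 0 and 0 CPM (adjusted p = 0.03 each). Seeded and unseeded values did not overlap in any of these, nor in 24.5% of all genes tested in monocytes. The 12 interstitial macrophage markers summed to 1245 and 1181 CPM in seeded monocytes, against 1067, 1064 and 772.7 CPM in unseeded ones.

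Dendritic cells had 2 genes higher (0.0349% of 5730) and 8 lower (0.14%), and 0 of the 10 passed in every leave-one-out fit. The count was 4 without 6-OHDA-PDAC 1, 1 without 6-OHDA-PDAC 2, 6 without 6-OHDA 1, 19 without 6-OHDA 2 and 13 without 6-OHDA 3. The antiviral gene Oasl1 had 157 and 49.5 CPM in seeded samples, against 0, 4.19 and 0 CPM in unseeded ones. These rest on 31 and 16 counts, against 0, 1 and 0. Oasl1 stood at 22.7, 28.1 and 18.7 CPM in vehicle dendritic cells, above each unseeded 6-OHDA value, and at 42.2 and 8.23 CPM in vehicle-PDAC ones. Mreg, which encodes melanoregulin, had 294 and 624 CPM, against 78.5, 41.9 and 57.2 CPM. Il1rap, the shared subunit of interleukin-1 family receptors, had 30.4 and 27.8 CPM, against 130, 126 and 146 CPM (log2 fold change -2.19 ± 0.393, adjusted p = 0.0158). Timd4, a receptor for dying cells, had 203 and 130 CPM, against 483, 440 and 842 CPM. The 12 interstitial macrophage markers summed to 917.2 and 880.8 CPM in seeded dendritic cells, against 1470, 1141 and 1570 CPM in unseeded ones, and the 10 conventional dendritic cell markers to 1693 and 1647 CPM, against 1084, 1023 and 1377 CPM. The part of such cells in the calls was not tested.

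In ciliated cells 1 of 3228 genes passed (0.031%). Errfi1, an inhibitor of the EGF receptor, had 66.0 and 22.8 CPM in seeded samples, against 230, 358 and 309 CPM in unseeded ones. Its log2 fold change was -2.41 ± 0.457 (adjusted p = 0.023). Errfi1 had 150, 75.6 and 119 CPM in vehicle samples, between the values of the seeded and unseeded 6-OHDA samples. It passed in 1 of the 5 leave-one-out fits, that without 6-OHDA 1, and was not called in DESeq2 or with the replicate block.

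Several genes were called in more than 1 type. Morrbid rose in general capillary endothelial cells, alveolar fibroblasts and interstitial macrophages. In fibroblasts it had 98.7 and 97.7 CPM in seeded and 60.3, 55.5 and 55.9 CPM in unseeded samples, and in interstitial macrophages 169 and 163 CPM, against 93.8, 88.8 and 94.9 CPM. In both types it passed in 0 of the 5 leave-one-out fits (adjusted p of up to 0.259 and 0.211, without 6-OHDA-PDAC 2), its macrophage call was lost in DESeq2, and its level lay below that in cancer cells. Cxcl9 rose in interstitial macrophages, monocytes and alveolar fibroblasts. In fibroblasts it was near the floor, at 2.85 and 7.58 CPM (8 and 28 counts) in seeded and 0, 0.799 and 0 CPM in unseeded samples. Its log2 fold change there ran from 3.31 to 7.27 with a sample left out. Mmp14 rose in interstitial macrophages and monocytes. Hepacam2, Cdk14, Arsb and Il1rap fell in interstitial macrophages and dendritic cells, and Agmo, Nr3c2, Negr1 and Inpp4b fell in interstitial macrophages and alveolar fibroblasts. Cell types of 1 sample come from the same lung tissue, so these are not independent repeats.

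Large vessel endothelial cells, which line arteries and veins, held the gene tied most closely to the drug. Slc6a2, the noradrenaline transporter through which 6-OHDA enters cells, had 479 and 551 CPM in the 6-OHDA-PDAC samples, against 156, 118 and 99.0 CPM in the 6-OHDA samples. It rose by 2.04 ± 0.265 on the log2 scale (adjusted p = 9.2e-05) and passed in all 5 leave-one-out fits and in all 7 other settings. Of 5856 genes tested in these cells 2 passed (0.0342%), and the other, Slco2a1, a prostaglandin transporter, had 952 and 918 CPM, against 382, 372 and 381 CPM (1.31 ± 0.242, adjusted p = 0.0238). Slco2a1 passed in 0 leave-one-out fits, and its adjusted p was 0.214 without 6-OHDA-PDAC 1. Slc6a2 had 744 and 734 CPM in the vehicle-PDAC samples and 549, 612 and 635 CPM in the vehicle samples, so the lowest values of all 10 samples were those of the 3 unseeded 6-OHDA samples. The seeding effect under 6-OHDA exceeded that under vehicle by 1.73 on the log2 scale, which did not pass (adjusted p = 0.105, and 0.339 without vehicle-PDAC 2). Cancer cells held 0.993 and 0.982 CPM of Slc6a2. The 6-OHDA-PDAC samples held 83 and 39 large vessel cells, against 52, 83 and 58 in the 6-OHDA samples. Slc6a2 is itself among the 9 markers of this type, whose sums overlapped, at 4437 and 5044 CPM against 4685, 3431 and 3091 CPM. A changed level per cell and a changed mix of vessel cells under the label cannot be told apart in these sums.

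Other genes of noradrenaline signalling did not pass. Of 37 tests of adrenergic genes over 7 types, 1 passed, Slc6a2. The receptor genes Adrb1 in general capillary endothelial cells and Adra1a in alveolar fibroblasts had 70.7 and 51.0 CPM and 259 and 312 CPM in seeded samples. In the unseeded samples Adrb1 had 118, 111 and 96.6 CPM (log2 fold change -0.83 ± 0.199, adjusted p = 0.0753) and Adra1a 443, 352 and 286 CPM (-0.33 ± 0.201, adjusted p = 0.512). Adrb3 in alveolar fibroblasts had 15.7 and 16.5 CPM, against 28.8, 24.8 and 22.7 CPM (adjusted p = 0.148). The noradrenaline-degrading enzyme Maoa had 28.2 and 9.66 CPM in seeded large vessel cells, against 21.2, 37.2 and 38.1 CPM in unseeded ones (adjusted p = 0.94).

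Whether seeding changed a gene differently under 6-OHDA and under vehicle was tested with an interaction term over all 4 groups. Of 107528 tests 8 passed (0.00744%), 5 of them in interstitial macrophages. Casp4, the inflammatory caspase that senses bacterial lipid, had 62.5 and 54.5 CPM in 6-OHDA-PDAC and 347, 289 and 303 CPM in 6-OHDA samples. It had 158 and 265 CPM in vehicle-PDAC and 324, 336 and 322 CPM in vehicle samples. Blnk, a signalling adaptor best known from B cells, had 28.2 and 23.2 CPM in 6-OHDA-PDAC and 171, 102 and 122 CPM in 6-OHDA samples, with 152 and 190 CPM in vehicle-PDAC and 176, 127 and 213 CPM in vehicle samples. The fall with seeding under 6-OHDA was larger than the change under vehicle for both, but neither passed without vehicle-PDAC 2 (adjusted p = 0.26 for Casp4 and 0.117 for Blnk). Of the 8 calls only Il1rap in dendritic cells passed without that sample, which leaves 1 vehicle-PDAC sample that is assumed to vary like the others. Retnla, with 139 and 592 CPM in vehicle-PDAC and 643, 466 and 383 CPM in vehicle macrophages, did not pass this test (difference of effects -3.23, adjusted p = 0.0678, and 0.35 without vehicle-PDAC 2). The count of interaction calls was 3 without 6-OHDA-PDAC 1, 0 without 6-OHDA-PDAC 2, 3 without 6-OHDA 1, 22 without 6-OHDA 2 and 3 without 6-OHDA 3, so for nearly all genes above a difference from seeding without 6-OHDA was not shown.

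**Figure D5:**
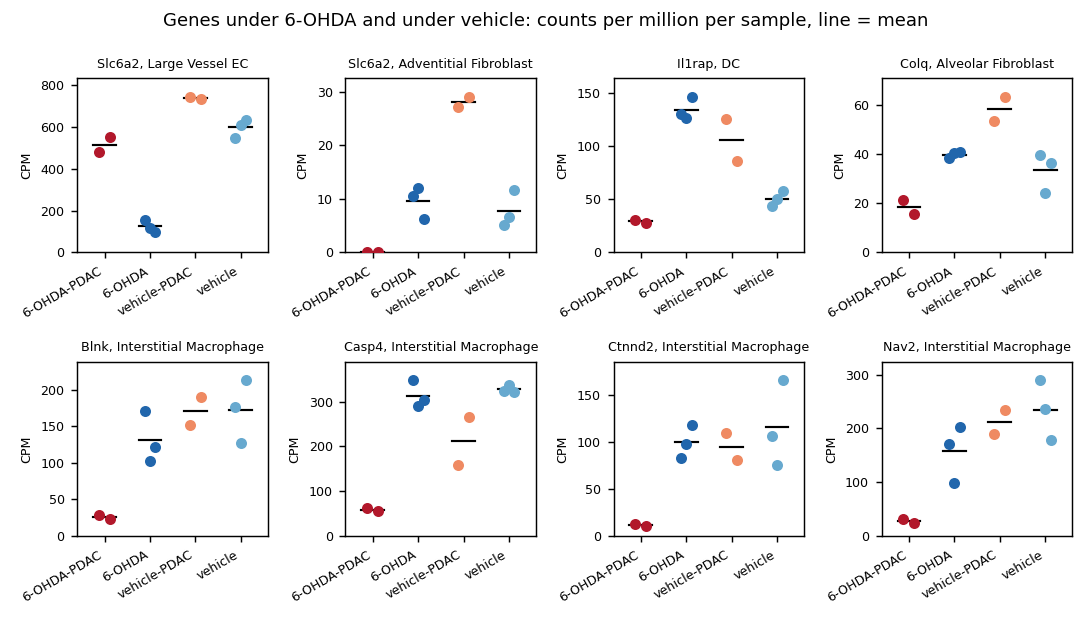
Levels in CPM (vertical axis, from 0) of genes whose seeding effect was tested between 6-OHDA and vehicle, each in the named cell type, for the 6-OHDA-PDAC, 6-OHDA, vehicle-PDAC and vehicle samples, with a point per sample and a line at the mean. Slc6a2 in large vessel endothelial cells is lowest in the 6-OHDA samples, and Blnk and Casp4 are lowest in the 6-OHDA-PDAC samples.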

How the data were processed

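Single-cell RNA libraries were made by split-pool barcoding (Evercode WT v3) from sorted live cells, per the labels' protocols. The 16 sublibraries each held cells of every sample, so samples, groups and cell types were taken from the deposited cell table. The authors deposited raw counts of transcripts per gene and cell, 38003 genes, and the percent of mitochondrially encoded transcripts per cell, at most 9.99, per the file headers. Every cell had at least 301 genes. The submitters' processing notes name Seurat 5.3.0 and the mouse build mm39. How reads were aligned and counted, how doublets were treated and how cells were annotated was not given in the sources used here. Sample, treatment and type labels in the cell table are the authors' own.

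Transcripts of each type with at least 20 cells in a sample were added up per sample, and these sums were fitted over all 6 groups with edgeR 4.0.16 (filterByExpr, TMM, quasi-likelihood test) in R 4.3.3, adjusted by Benjamini-Hochberg within each type at 0.05. CPM values refer to the TMM-scaled library of the type. Those of cancer cells, of single cancer markers and of whole samples refer to unscaled totals. Shares were tested on cell numbers. Alternatives included DESeq2 1.42.0. Scripts were tested on simulated data.

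Named genes were the 4 largest rises and falls with a mean of at least 20 CPM in the 5 types with most calls, the 10 genes called in most types, up to 4 called members of each list and adrenergic genes. Slco2a1 was added after its values were seen. The members, lists and rule were chosen with earlier results of these data known. A few genes that the rule takes are not reported here.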

Additional observations from a re-analysis of the deposited data

Results flagged for a closer look

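The seeding effect differed between 6-OHDA and vehicle, by an interaction term in edgeR with Benjamini-Hochberg adjustment, for 8 genes. Differences below are the effect under 6-OHDA minus the effect under vehicle, on the log2 scale. In interstitial macrophages they were -2.31 for Blnk, -1.77 for Casp4, -2.79 for Ctnnd2, -1.71 for Mctp1 and -2.32 for Nav2. In the 6-OHDA-PDAC samples Ctnnd2 had 12.6 and 10.2 CPM, Mctp1 127 and 124 CPM and Nav2 31.2 and 23.2 CPM. In the 6-OHDA samples Ctnnd2 had 82.4, 97.3 and 118 CPM, Mctp1 489, 516 and 615 CPM and Nav2 171, 99.0 and 203 CPM.

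In dendritic cells the difference was -3.26 for Il1rap, which had 125 and 85.6 CPM in vehicle-PDAC and 43.6, 49.9 and 57.9 CPM in vehicle samples, the other direction from that under 6-OHDA. In alveolar fibroblasts it was -1.86 for Colq, which anchors acetylcholinesterase, with 21.4 and 15.7 CPM in 6-OHDA-PDAC, 38.3, 40.4 and 41.0 CPM in 6-OHDA, 53.5 and 63.3 CPM in vehicle-PDAC and 39.9, 24.3 and 36.3 CPM in vehicle samples. In adventitial fibroblasts it was -8.17 for Slc6a2, with 0 and 0 CPM in 6-OHDA-PDAC and 10.6, 12.1 and 6.22 CPM in 6-OHDA samples, so this fitted value is no bound. The same gene had 27.1 and 29.0 CPM in vehicle-PDAC and 5.10, 6.56 and 11.7 CPM in vehicle samples. Its seeding effect under 6-OHDA alone did not pass in these cells (adjusted p = 0.23), while in large vessel endothelial cells it rose. Without vehicle-PDAC 2, the seeded sample with 0 cancer cells, Il1rap still passed (adjusted p = 0.00176) and the other 7 genes did not (adjusted p 0.0666 to 0.299).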

How the results depend on the processing

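The cause of each change below was not tested unless fewer samples or tests show it. The 784 gene calls became 1299 with only the 5 6-OHDA samples fitted and 287 adjusted over all types together, and 133 to 591 with a 6-OHDA sample left out. The 594 calls of interstitial macrophages became 165 adjusted over all types and 115 to 502 with a sample left out. The 146 of alveolar fibroblasts became 323 with no filter, 265 in DESeq2, 405 with only the 5 samples, 63 adjusted over all types and 7 to 53 with a sample left out. The 88 calls within lists became 148 with no filter, 150 with only the 5 samples, 35 adjusted over all types and 16 to 71 with a sample left out. The 8 interaction calls became 187 with no filter, 62 in DESeq2, 0 adjusted over all types and 0 to 22 with a sample left out. The 2 shares became 1 without cancer cells, 1 without alveolar macrophages and cancer cells, and 0 to 2 with a sample left out. The log2 fold change of the interstitial macrophage share ran from 1.53 to 2.09 and that of cancer cells from 9.71 to 9.79 with a sample left out, and the fold of cancer cells rests on unseeded counts of 0. With the sample number as a replicate block, 723 genes, 9 interactions and 1 share passed, and the cancer cell share had 9.63 (adjusted p = 0.0581). Only 2 numbers are shared and nothing says they pair samples. Correlations of deviations from the group means were -0.25 and -0.07 over 5882 genes. The deviations of 2 seeded samples mirror each other, so these values cannot decide whether samples pair. Reversed was Maoa in general capillary cells, at 0.03 with the block and -0.27 to 0.12 with a sample left out (0.01 and 0.09 among them), which was not called. Of the 137 called named genes, 959 of 1079 values in settings with all 5 samples kept the call, and 327 of 683 with a sample left out did, with 0 reversed. With 78 interstitial macrophages in 6-OHDA 3, low genes are limited by depth.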

Other observations

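Some lists leaned one way across cell types with few calls, given here as a description since cell types of a sample come from the same lung tissue. The median log2 fold change of seeded over unseeded 6-OHDA samples was above 0 in 15 of 17 types for the MHC class II pathway, 16 of 17 for oxidative phosphorylation, 15 of 17 for collagens and matrix, 14 of 17 for the unfolded protein response and 13 of 17 for ribosomal proteins. It was above 0 in 4 of 17 types for the MHC class I pathway, AP-1 and immediate early genes, circadian clock genes and lipid-associated macrophage genes. Of the first 5 lists the collagens had 3 genes called higher and 3 lower, the MHC class II pathway 2 higher, the unfolded protein response 2 higher, oxidative phosphorylation 1 higher and ribosomal proteins 0 of 1134 tests in edgeR. In NK cells the MHC class II median was 1.5 over 5 genes and in neutrophils 1.34 over 7 genes, and dendritic cells stood at -0.70 over 10 genes.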
